A study of Mus musculus with 7 samples.

Results

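The GIMAP genes encode GTPases of immunity-associated proteins, a family found mainly in lymphocytes and, in the mouse, lying together on chromosome 6. They were followed here in naive CD8 T cells after an inducible copy of the tyrosine kinase Lck was turned off, and in WT cells. The members were the 8 genes Gimap1, Gimap3, Gimap4, Gimap5, Gimap6, Gimap7, Gimap8 and Gimap9, taken as every non-control row of the array that carries one of these gene names. They held 10 of 55681 probes and 8 of 34797 gene names on the array, and all 8 passed the filter that left 18256 genes, which kept probes flagged above background on 3 or more of the 7 arrays. The cells came from mouse lymph nodes and were sorted as CD8b+ with little CD44. Both groups were heterozygous for the OT-1 transgene, which encodes a T cell receptor specific for a peptide of ovalbumin, and were Rag-/-, which blocks rearrangement of any other receptor. The Lck-off group held 4 samples from mice that also lacked a working Lck gene (Lck-/-) and whose inducible, knocked-in Lck had been turned off by 7 days without doxycycline in the diet. The WT group held 3 samples. The labels give neither the age of the mice nor the promoter and cell types that drive the inducible Lck, and no mice of the Lck-/- genotype still on doxycycline were among the samples, so genotype, diet and loss of Lck cannot be told apart.

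GIMAP proteins bind GTP and sit on intracellular membranes, among them those of lysosomes, mitochondria and vesicles. They are known above all for their part in lymphocyte survival: loss of Gimap5 in rats and mice, or of Gimap1 in mice, depletes mature T cells. Naive T cells live long without dividing and depend on survival factors.

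Each sample was hybridised to 1 single-colour Agilent array. A level is the log2 of a probe's intensity over the 75th percentile of that array. The ± beside a mean is the SD over arrays, and a difference is the Lck-off mean less the WT mean, in log2 units. Each member is represented by its brightest probe, and levels of different probes are not comparable. All 10 GIMAP probes were well above background on all 7 arrays, none was saturated, and their processed intensities ran between 430 and 45842 while the 75th percentile of an array lay between 208 and 243. Lck itself read 8.52, 8.83, 8.60 and 8.55 in Lck-off cells and 8.99, 9.02 and 8.98 in WT cells. That is a difference of -0.37 (SE 0.09, adjusted p = 0.0494 by limma), and it did not pass in 6 of 7 fits with a single array removed (adjusted p = 0.0150 to 0.154). Within slide row 1 it was -0.27 and within row 2 -0.47, row 1 holding Lck-off replicates 2 and 3 with WT replicate 3. Whether the only kept probe of Lck lies outside the disrupted part of the gene was not tested. All 10 T cell markers examined were measured, Cd3e at 8.02 ± 0.03 in Lck-off (n = 4) and 8.06 ± 0.04 in WT (n = 3).

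The probes lie on mm9 chromosome 6 between 48610775 and 48714522, a span of 104 kb. Along it the order is Gimap8, Gimap9, Gimap4, Gimap6, Gimap7, Gimap1, Gimap5 and Gimap3, with Gimap6 and Gimap3 on the minus strand. Gimap4 has 3 probes and the other 7 genes have 1 each. The Gimap9 probe and the most 5′ Gimap4 probe are shown because their share of matching bases was the highest of all pairs of GIMAP probes: 27 of 45 bases (60.0%) in their best ungapped overlap, marked in capitals. The Gimap9 probe starts at base 518 of its transcript, at chr6:48627839-48627898 on the plus strand, and the Gimap4 probe at base 500, at chr6:48640752-48640811 on the plus strand.

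Gimap9: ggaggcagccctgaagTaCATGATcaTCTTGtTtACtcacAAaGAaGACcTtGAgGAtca

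Gimap4: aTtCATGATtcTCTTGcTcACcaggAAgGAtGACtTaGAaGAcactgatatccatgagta

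The longest run shared by these 2 probes was 7 bases. Cross-hybridisation between GIMAP transcripts was not tested, because the transcripts themselves were not used here.

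None of the 8 GIMAP genes was called in Lck-off cells against WT by limma (adjusted p under 0.05, two-sided, adjusted over all 18256 genes), while 8.39% of all genes were called. The lowest adjusted p among them was 0.129. The Lck-off mean lay below the WT mean for 4 of 8 members, as for 51.7% of all genes. At an unadjusted p under 0.05 there were 3 of 8 members, Gimap9, Gimap3 and Gimap5, where 21.5% of all genes reached that level. The largest absolute difference was 0.30, and 77.4% of all genes differed by no more than that. The median difference of the members was -0.05, against -0.01 over all genes, and the median size of the difference was 0.15, against 0.13. The 95% interval of the difference lay between -1 and 1, that is within 2-fold either way, for 8 of 8 members, as it did for 88.0% of all genes. It lay between -0.5 and 0.5 for 6 of 8 members, against 59.6% of all genes.

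**Figure D1:**
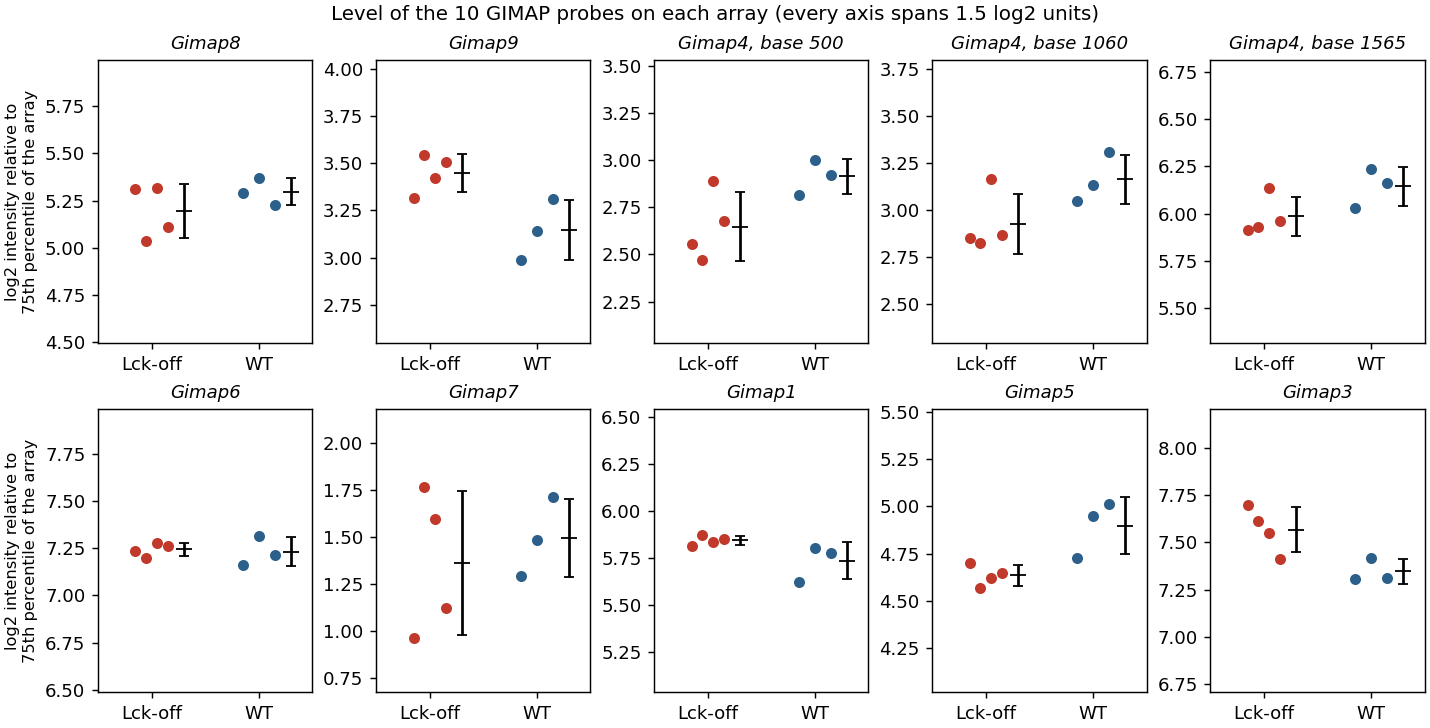
Level of each of the 10 GIMAP probes (log2 intensity relative to the 75th percentile of the array) on the 4 Lck-off arrays (red, left) and the 3 WT arrays (blue, right), with the mean and SD of each group in black; probes are in chromosomal order and every axis spans 1.5 log2 units. The groups do not overlap for Gimap9, Gimap1 and Gimap5, and Gimap7 has the widest spread within groups.

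Among the members tied to lymphocyte survival, Gimap5 had the lower mean in Lck-off cells. It is the member whose loss causes T cell lymphopenia in rats. Gimap5 read 4.70, 4.57, 4.62 and 4.65 on the Lck-off arrays and 4.73, 4.95 and 5.02 on the WT arrays. Every Lck-off array lay below every WT array, with WT replicate 1 only just above. The difference was -0.26 (SE 0.09, 95% interval -0.47 to -0.05), or 0.834-fold, with an adjusted p of 0.137 by limma. An exact permutation of the arrays gave p = 0.0286 (two-sided, not adjusted), the smallest that the 35 splits can give. In the authors' deposited value table the difference was also -0.26, and there Gimap5 passed the test (adjusted p = 0.0358 by limma), the one member and the one alternative of 22 for which any GIMAP gene did. Over all 22 alternatives its difference ran from -0.42 to -0.16, the 2 ends being slide row 1 alone and slide row 2 alone.

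Gimap3, a close relative of Gimap5 that the array's annotation describes as encoding a mitochondrial protein, had the higher mean. It read 7.70, 7.61, 7.55 and 7.41 in Lck-off cells and 7.31, 7.42 and 7.31 in WT cells. The groups overlapped through Lck-off replicate 4, which lay just below WT replicate 2. The difference was 0.22 (SE 0.09, 95% interval 0.02 to 0.43), or 1.17-fold (limma, adjusted p = 0.196; exact two-sided permutation p = 0.0857).

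Gimap1, which mature T and B cells of mice need in order to persist, had a slightly higher mean. It read 5.82, 5.87, 5.84 and 5.85 on the Lck-off arrays and 5.63, 5.80 and 5.78 on the WT arrays. All Lck-off arrays lay above all WT arrays, and they were close together, with an SD of 0.02 against 0.10 in WT. The difference was 0.11 (SE 0.07, 95% interval -0.06 to 0.27; limma, adjusted p = 0.462; exact two-sided permutation p = 0.0286). With Gimap5 and Gimap9, Gimap1 is 1 of 3 members of 8 whose groups did not overlap, 2 higher and 1 lower in Lck-off. Over all genes 21.8% had no overlap, 9.80% being higher and 12.0% lower.

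Gimap4, which in mice speeds the death of T cells once apoptosis has been set off, had the lower mean on each of its 3 probes. The brightest, from base 1565 of the transcript, read 5.91, 5.93, 6.14 and 5.96 in Lck-off and 6.03, 6.24 and 6.16 in WT, a difference of -0.16 (SE 0.09, 95% interval -0.37 to 0.05; adjusted p = 0.370 by limma). Lck-off replicate 3 was the high array of its group and lay inside the WT range. The probe at base 500, printed above, read 2.56, 2.47, 2.89 and 2.68 in Lck-off and 2.82, 3.00 and 2.92 in WT. The probe at base 1060 read 2.85, 2.83, 3.17 and 2.87 in Lck-off and 3.05, 3.13 and 3.31 in WT. On both, Lck-off replicate 3 was again the highest of its group and the groups overlapped through it. In the fit that took every probe as its own row, those differences were -0.27 and -0.23 (SE 0.12 and 0.11), with adjusted p = 0.253 and 0.306 by limma. In that fit 0 of the 10 GIMAP probes were called by limma, against 7.33% of 25608 probes, and 3 of 10 had an unadjusted p under 0.05, against 20.5%. The groups did not overlap for 3 of 10 probes, against 20.8%.

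Gimap6, which binds the autophagy protein GABARAPL2, was the member with the smallest difference. It read 7.24, 7.20, 7.28 and 7.26 in Lck-off cells and 7.16, 7.31 and 7.22 in WT cells. The Lck-off arrays all lay within the WT range. The difference was 0.01 (SE 0.07), and its 95% interval of -0.15 to 0.17 corresponds to 0.903-fold to 1.13-fold. Its sign turned to -0.0051 with scaling to the median and to -0.02 with quantile normalization.

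Gimap8, the largest member, with several GTPase domains in 1 protein, read 5.31, 5.04, 5.32 and 5.11 in Lck-off and 5.29, 5.37 and 5.23 in WT. Lck-off replicates 2 and 4 lay below the WT range and replicates 1 and 3 inside it. The difference was -0.10 (SE 0.10, 95% interval -0.33 to 0.12; adjusted p = 0.624 by limma).

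Gimap7 was the least precisely measured member. In humans the protein hydrolyses GTP as a dimer. Gimap7 read 0.96, 1.76, 1.60 and 1.12 on the Lck-off arrays and 1.29, 1.48 and 1.71 on the WT arrays. The Lck-off arrays spread on both sides of the WT range, replicates 1 and 4 below it and replicate 2 above. The difference was -0.13 (SE 0.21), with a 95% interval of -0.64 to 0.37, or 0.644-fold to 1.29-fold. In Lck-off the 2 low arrays, replicates 1 and 4, lay in row 2 of the slide and the 2 high ones in row 1, and in WT the highest, replicate 3, was the one array in row 1. Within row 1 the difference was -0.03 and within row 2 it was -0.34. With the row as a block it was -0.22 (adjusted p = 0.334 by limma).

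Gimap9 had the largest difference of the family. It read 3.32, 3.54, 3.42 and 3.51 on the Lck-off arrays and 2.99, 3.14 and 3.31 on the WT arrays. Each Lck-off array lay above each WT array, but Lck-off replicate 1 and WT replicate 3 were nearly level. The difference was 0.30 (SE 0.10, 95% interval 0.07 to 0.54), or 1.23-fold (limma, adjusted p = 0.129; exact two-sided permutation p = 0.0571). Within slide row 1 it was 0.175, and within row 2 it was 0.35. Over the 22 alternatives its adjusted p stayed between 0.0623 and 0.748.

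**Figure D2:**
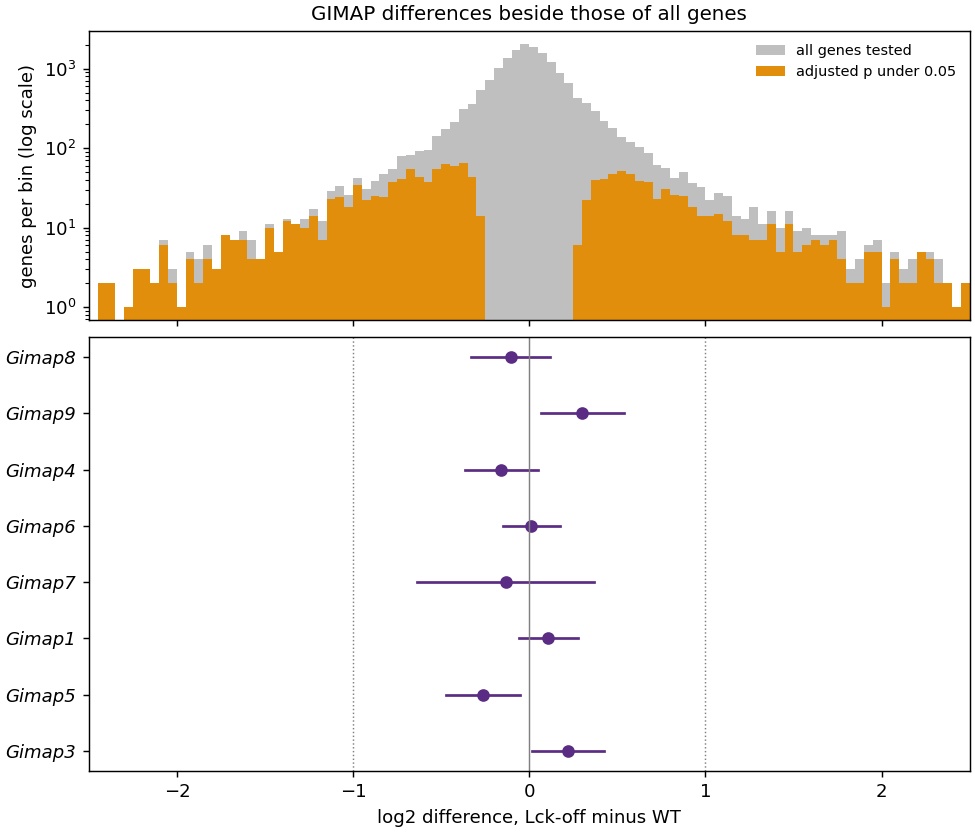
Upper panel, the number of genes (log scale) by log2 difference, Lck-off minus WT, for all 18256 genes tested (grey) and for those with an adjusted p under 0.05 (orange), differences beyond the axis left out; lower panel, the difference of each GIMAP gene with its 95% interval on the same axis, dotted lines marking 2-fold. All 8 intervals lie inside the dotted lines, and the largest difference, that of Gimap9, is 0.30.

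Within the slide rows the remaining members differed by -0.05 in row 1 and -0.12 in row 2 (Gimap8), -0.13 and -0.20 (Gimap4), 0.02 and 0.01 (Gimap6), 0.07 and 0.12 (Gimap1), and 0.27 and 0.19 (Gimap3). None of the 5 changed its sign between the rows. For the members whose permutation is not given above, the exact two-sided permutation gave p = 0.114 (Gimap4), 0.343 (Gimap8), 0.629 (Gimap7) and 0.8 (Gimap6). All permutation p-values here are unadjusted, and the share of all genes that reach such values was not counted.

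Part of the array-to-array movement of the members did not follow the groups. Among the WT arrays, replicate 1 was the lowest for 7 of 8 members. Among the Lck-off arrays, replicates 1 to 4 were the lowest for 4, 3, 0 and 1 members. Such counts were not made over all genes, so whether the movement is particular to the family was not tested. The mean of the 8 genes, each centred on its own average over arrays, was -0.11 on WT replicate 1 against 0.05 and 0.06 on replicates 2 and 3. On the Lck-off arrays the same mean was -0.04, 0.03, 0.06 and -0.05. WT spread further down than Lck-off, through replicate 1, and the highest arrays of both groups were level. The 2 Lck-off arrays below 0 lay in slide row 2, as did WT replicate 1. WT replicate 2 also lay in that row and was above 0. The genes most like this family average were Hemgn, Spag7, Hecw1, Nup54 and Sp110. Their root mean square difference from it over the 7 arrays was 0.01 to 0.02, the 5 smallest of 18247 genes, and the members' own lay between 0.05 and 0.24. The average itself moved only between -0.11 and 0.06, so a gene that hardly moved also lies near it. How many genes lay as near to it as the members was not counted.

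Few genes around the cluster passed the test. Within 1 Mb on either side of the outermost GIMAP probes 57 gene names were on the array and 37 were measured. Of these 1 rose and 0 fell by limma, and the median difference was 0.02, where 3.81% of all genes rose and 4.58% fell. An unadjusted p under 0.05 was found for 4 of the 37, where 21.5% of all genes had one. The gene that rose was Zfp467, a zinc finger gene: 0.70, 0.40, 0.70 and 0.68 in Lck-off and -0.32, 0.02 and -0.31 in WT. The groups were well apart, with a difference of 0.82 (SE 0.12, adjusted p = 0.00684 by limma). Each of its 4 probes was higher in Lck-off, by 0.42 to 0.89. It was 0.86 within slide row 1 and 0.83 within row 2.

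The measured gene next to Gimap8 was AI854703, at 0.23 (SE 0.12, adjusted p = 0.321 by limma). Next to Gimap3 was Tmem176b, a membrane protein gene known from dendritic cells. Tmem176b read 0.97, 1.92, 0.89 and 0.99 in Lck-off and 0.47, 0.34 and 0.41 in WT. Lck-off replicate 2 stood far above the other arrays. H2-Ab1, an MHC class II gene of antigen-presenting cells, was also highest there: 0.96, 2.25, 0.81 and 0.02 in Lck-off and -0.86, 0.64 and -0.93 in WT, with overlapping groups. Tmem176b differed by 0.79 (SE 0.25, adjusted p = 0.115 by limma). It was called without Lck-off replicate 2 and with trended moderation. Its neighbour Tmem176a differed by 0.66 (adjusted p = 0.220) and Zfp282 by -0.22 (adjusted p = 0.143). Between the GIMAP genes lay 2 other measured names, A130009E19Rik at 0.38 (SE 0.12, adjusted p = 0.112) and ENSMUST00000155906 at -0.07 (adjusted p = 0.714), neither of them called.

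**Figure D3:**
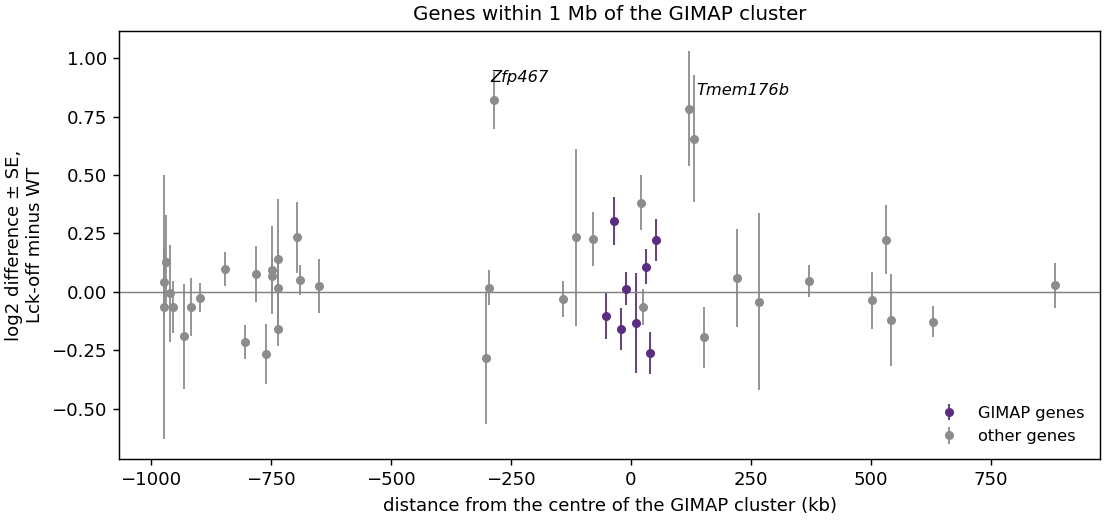
Difference (log2, Lck-off minus WT, bars ± SE) of every measured gene within 1 Mb of the GIMAP cluster, by distance in kb from the centre of the cluster, GIMAP genes in purple and other genes in grey. The GIMAP genes lie between -0.26 and 0.30, and Zfp467, at 0.82, is the only gene shown that was called.

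A list of 28 genes, drawn from groups tied to GIMAP function in published work, was read beside the family. The groups were BCL2 family regulators of cell death, autophagy genes of the ATG8 type and their partners, GSK3 genes, and survival and homing genes of naive T cells. Whether each single gene has such a tie was not checked. All 28 were measured. By limma 1 rose, 2 fell and 25 did not pass, so that 3 of 28 were called, against 8.39% of all genes. The list's median difference was -0.02, against -0.01 over all genes.

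Bbc3 (Puma, which promotes cell death) had the largest fall. It read 2.19, 1.62, 2.03 and 2.33 in Lck-off cells and 3.79, 3.63 and 3.80 in WT cells, with every Lck-off array more than 1 log2 unit below the lowest WT array. Its difference was -1.70 (SE 0.17, adjusted p = 0.00145 by limma). Gabarapl1, an autophagy gene of the same family as the GIMAP6 partner Gabarapl2, also fell. It read 1.10, 1.17, 0.98 and 1.17 in Lck-off and 1.73, 1.77 and 1.85 in WT, and the groups were clearly apart. The difference was -0.68 (SE 0.08, adjusted p = 0.00250 by limma). Within slide rows 1 and 2 the differences were -1.98 and -1.45 for Bbc3 and -0.77 and -0.62 for Gabarapl1. Gabarapl2 itself differed by 0.03 (95% interval -0.15 to 0.22) and Gabarap by 0.13 (95% interval -0.03 to 0.29), and neither passed.

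Bcl2l1 encodes Bcl-xL, an inhibitor of apoptosis, and rose: 3.40, 3.40, 3.32 and 3.03 in Lck-off and 2.83, 2.85 and 2.60 in WT. The lowest Lck-off array, replicate 4, still lay above the WT arrays. The difference was 0.53 (SE 0.12, adjusted p = 0.0380 by limma), and its second kept probe was higher by 0.92. It did not pass in 6 of 7 fits with a single array removed (adjusted p = 0.0203 to 0.121), nor in 13 of 22 alternatives in all, and was 0.76 within slide row 1 and 0.37 within row 2. Bcl2, which keeps naive T cells alive, was at 0.26 (adjusted p = 0.137), Mcl1 at 0.20 (adjusted p = 0.259) and the IL-7 receptor gene Il7r at -0.21 (adjusted p = 0.234), and none of these passed.

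**Figure D4:**
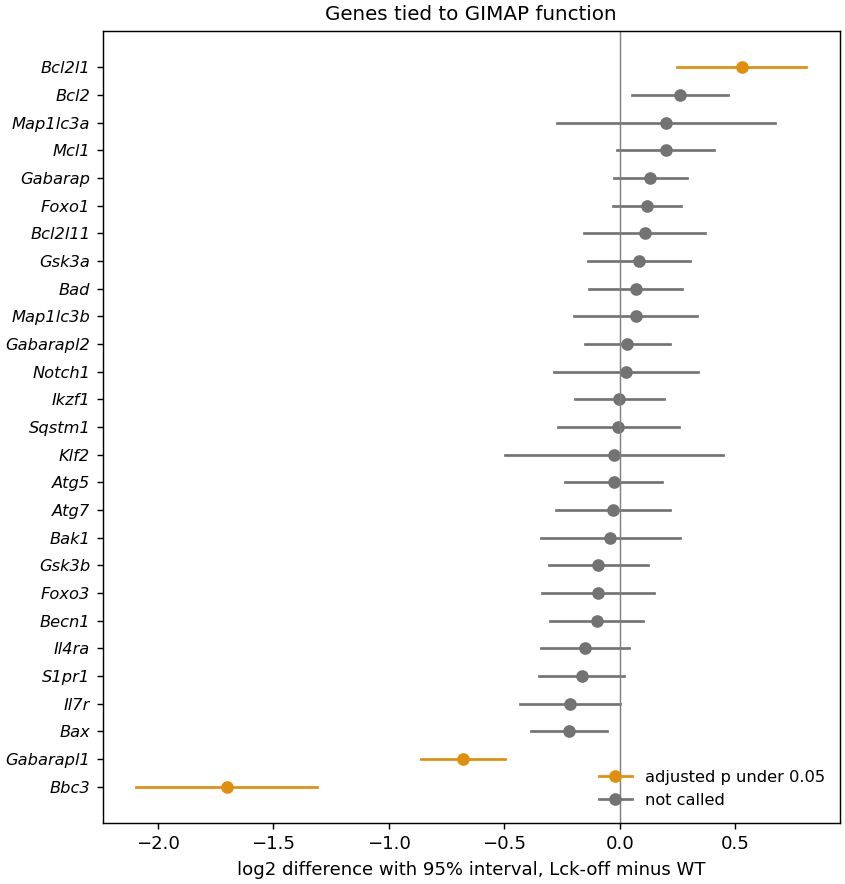
Difference (log2, Lck-off minus WT) with its 95% interval for 27 genes of the list drawn from groups tied to GIMAP function, in order of the difference, orange where the adjusted p was under 0.05. Bbc3 (-1.70) and Gabarapl1 (-0.68) fell, Bcl2l1 (0.53) rose, and the other 24 shown did not pass.

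GIMAP genes are also expressed by other lymphocytes and by endothelium, so markers of these cells were read on the same arrays. In bulk samples fewer cells of a type and less RNA per cell cannot be told apart. The B cell genes Ms4a1 and Pax5 stayed below the flag for signal well above background on all 7 arrays, as did 5 of 7 endothelial markers (Cdh5, Tek, Emcn, Lyve1 and Prox1). Of the 7 B cell markers 4 were measured, and none of these was called. As summed signal in units of the array's 75th percentile, the 7 B cell markers ran from 12.3 to 15.3 in Lck-off and from 12.6 to 14.7 in WT, and the 10 T cell markers, of which Lat rose by 0.27 (adjusted p = 0.0467 by limma), from 2144 to 2286 in Lck-off and from 2088 to 2216 in WT. The 10 markers of macrophages, monocytes and neutrophils ran from 50.7 to 61.5 in Lck-off and from 41.4 to 58.4 in WT, with 1 called (C1qb, higher). The 7 dendritic cell markers ran from 252 to 310 in Lck-off and from 244 to 264 in WT, and the 4 markers of CD4 and regulatory T cells from 17.7 to 21.0 in Lck-off and from 16.6 to 17.4 in WT, none called in either list. Each such sum follows the brightest probes of its list, so it can miss a change in dimmer ones. Not called but with higher means in Lck-off were H2-Ab1, by 1.40 (SE 0.58, adjusted p = 0.223 by limma), Cd74, by 1.12 (SE 0.51, adjusted p = 0.265), and the macrophage gene C1qa, by 1.38 (SE 0.37, adjusted p = 0.0734). The groups overlapped for each of them. C1qa lay far below the 75th percentile of every array, at -2.21, -2.38, -2.17 and -2.97 in Lck-off and -4.39, -2.90 and -4.14 in WT. These genes were picked after their values were seen, and the directions of the other uncalled markers of their lists are not given. The sums of the NK cell and immature thymocyte lists differed between the groups, with 1 gene called in each. Nkg7, the only measured one of 5 NK cell markers, fell. With 1 measured gene, the sum of the NK cell list cannot tell a change of Nkg7 from one of NK cells. That list ran from 150 to 176 in Lck-off and from 272 to 291 in WT. Of 4 thymocyte markers Dntt rose, Cd1d1 was measured but not called, and Rag1 and Ptcra stayed below that flag on all 7 arrays. The thymocyte list ran from 64.7 to 82.9 in Lck-off and from 24.0 to 27.0 in WT. The 7 endothelial markers ran from 10.1 to 14.2 in Lck-off and from 11.3 to 11.6 in WT, the 4 stromal ones, of which Pdgfrb fell, from 0.315 to 0.956 in Lck-off and from 0.288 to 0.55 in WT, and the 4 of red blood cells and platelets from 0.892 to 3.32 in Lck-off and from 0.202 to 1.87 in WT. The part of these cells in the GIMAP and Tmem176b levels was not tested.

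**Figure D5:**
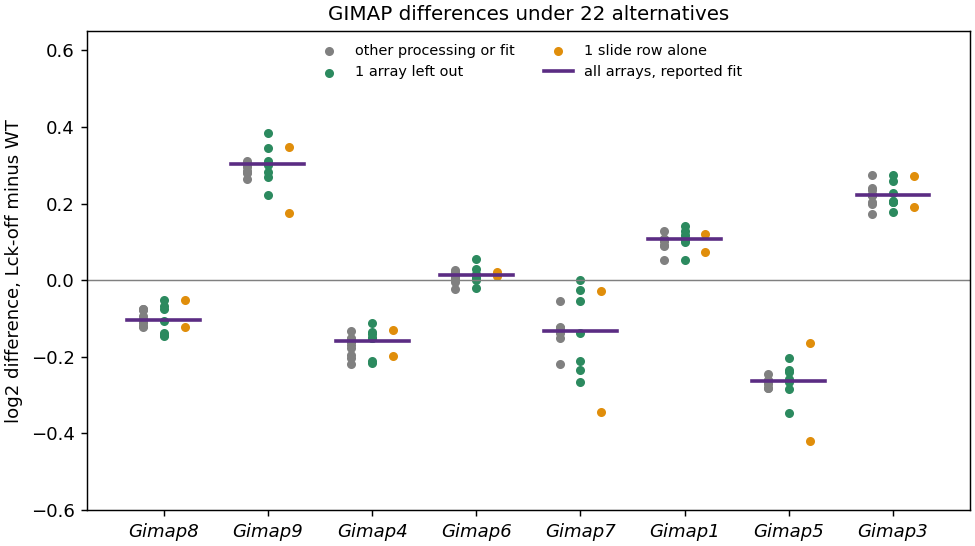
Difference (log2, Lck-off minus WT) of each GIMAP gene with all arrays (purple line) and under 22 alternatives: other processing or fit (grey), 1 array left out (green) and 1 slide row alone (orange). Gimap9, Gimap1 and Gimap3 stay above 0 and Gimap8, Gimap4 and Gimap5 below 0 in all 22, while Gimap6 and Gimap7 reach both sides.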

How the data were processed

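The intensity columns are the authors' own, written by the scanner software Feature Extraction 10.7.3.1 for design 028005 with probe positions on mm9, per the file headers. The processed intensity has had background removed and spatial trends levelled inside each array. The raw mean and background intensity serve 1 alternative, and the flags, other deposited columns, are by the same software. The authors' deposited value table appears to be log2, judged by its values (column medians 6.34 to 6.35). The submitters' processing notes name limma for it, and its steps and centring are unknown here.

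Log2 processed intensities were scaled to the array's 75th percentile, non-uniform spots set to missing and spots of a probe averaged. Each gene name took its brightest of 25608 kept probes. The groups were tested with limma 3.58.1 in R 4.3.3, moderated over all genes, with Benjamini-Hochberg adjustment. The fit was tested on simulated data with independent noise and added effects larger than any GIMAP difference. That test does not cover differences of the size seen in the family. The series calls the samples biological replicates. Whether each is 1 animal is not stated, so p-values measure the spread between these samples, and the number of arrays limits the precision. Members, lists and tests were chosen with earlier results of these data known. All members were named, and of other lists called genes, up to 4 of smallest p and nearest neighbours. Of the genes so chosen, 1 is not reported here. Gabarap, Gabarapl2, Bcl2, Il7r, Mcl1, Cd3e, H2-Ab1, Cd74, C1qa and the genes between members were named after their values were seen.

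All arrays lay on 1 slide in 2 rows. Alternatives were other background correction, scaling, filters, probe summary and moderation, the deposited table, blocks by replicate number or row, each row alone and each array left out.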

Additional observations from a re-analysis of the deposited data

How the results depend on the processing

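With 21 of 22 alternatives 0 GIMAP genes were called; the exception was the authors' deposited table, where 1 gene (Gimap5) and 1 of 10 probes were. The probe-level alternatives were added after the data were seen. Gimap6 changed sign with median scaling (-0.0051), with quantile normalization (-0.0236) and when 1 array was left out (-0.0211 to 0.0541), and Gimap7 when 1 array was left out (-0.27 to 0.00016); the cause was not tested. The other 6 kept their sign throughout, and the median of the family, -0.05, ran from -0.07 to 0.0077. The count of all genes called, 1531, was 920 with median scaling, 717 with no filter on dim probes (where 34797 genes were tested), 108 in slide row 1 alone and 0 in row 2 alone (2714 at an unadjusted p under 0.05), and 962 to 1410 with 1 array left out. With the replicate block, where Lck-off replicate 4 has no partner and adds nothing to the difference, it was 368; there 1 gene of the GIMAP partner list was called and 0 flanking genes, Gabarapl1 at adjusted p = 0.0657, Bcl2l1 at 0.0710 and Zfp467 at 0.119. Same-numbered samples had correlated deviations of 0.11, 0.05 and -0.01, and 1 of 3 WT samples correlated best with its own number. No pairing by number was seen, though such correlations cannot exclude one. The deposited files number the WT arrays 2 to 4; matched that way the correlations were -0.17, -0.05 and -0.07, and no block was fitted on that numbering. In each slide row alone, which holds fewer samples, 0 partner and 0 flanking genes were called by limma. Flanking genes called numbered 2 with trended moderation and 1 to 2 with 1 array left out. The median SE of the GIMAP differences, 0.088, limits the size of a difference that 4 against 3 arrays can resolve.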

Other observations

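Because differences between probes of the same array do not depend on how arrays are scaled, 4 contrasts within the family were read array by array, chosen after the values had been seen and given with no test. Gimap9 minus Gimap5 was -1.38, -1.03, -1.20 and -1.14 on the Lck-off arrays and -1.74, -1.81 and -1.71 on the WT arrays. The groups did not overlap, and the contrast was higher by 0.56 in Lck-off. Gimap3 minus Gimap5, between neighbouring and closely related genes, was 3.00, 3.04, 2.93 and 2.77 on the Lck-off arrays and 2.58, 2.47 and 2.30 on the WT arrays. Here too the groups did not overlap, and the contrast was higher by 0.48 in Lck-off. Gimap1 minus Gimap5 was 1.11, 1.30, 1.21 and 1.21 on the Lck-off arrays and 0.90, 0.85 and 0.76 on the WT arrays, higher by 0.37 in Lck-off and again with no overlap. Gimap9 minus Gimap8 was -1.99, -1.49, -1.89 and -1.60 on the Lck-off arrays and -2.30, -2.23 and -1.92 on the WT arrays, higher by 0.41 in Lck-off with overlapping groups. Of the 4 contrasts, 3 include Gimap5. As the pairs were picked by these same values, their lack of overlap is no test. For Gimap9 and Gimap1 against Gimap5 it follows from the single genes, whose groups did not overlap and differed in opposite directions. How often other gene pairs separate the groups was not counted. The contrasts are unequal changes of probes within an array and do not say which of the genes moved.

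RefSeq promoters (GRCm38.p6, 250 bases before to 50 after the start) were at hand for 8 of 8 members and were searched on both strands. A core of the interferon response element, 2 copies of GAAA with 2 bases between them, was found in 0 of 8 members and in 3.99% of 27025 genes, and the ETS core CCGGAA in 0 of 8 and in 16.7%. The RUNX core TGTGGT was found in 3 of 8 (Gimap4, Gimap7 and Gimap1) and in 18.9%, and TATAAA in 1 of 8 (Gimap6) and in 15.7%. A match or its absence describes the letters of these windows alone.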
